A study of Mus musculus with 4 samples.

Results

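The region described here is a 1.25 Mb stretch of mouse chromosome X (mm10, chrX:105750001-107000000) that holds Fgf16, Atrx, Magt1, Pgk1, Rtl3 and Lpar4. These 6 genes are members of 966 protein-coding genes on the chromosome, and each was placed in a bin of the deposited Hi-C matrices by the midpoint of its RefSeq gene. They fall into 3 of the 5 bins of 250 kb that make up the region, of 588 bins with data, and into 6 bins of 100 kb. The region holds 14 protein-coding genes in all, and 34 are counted when 2 Mb on each side are added. The region was selected on its compartment score on the mus chromosome, a measure defined further on, because the increase in the knockout was among the highest there. Values of mus that compare the genotypes are therefore a description of what was selected. The cas scores were not used to select it, but the measure itself takes its compartments from cas.

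The study made Hi-C, in which neighbouring pieces of chromatin are joined and their joints sequenced, from tail tip fibroblasts (TTF) of female mus/cas hybrid mice. The knockout samples (KO) carried the genotype Sirt7-/- and the wild-type samples (WT) did not, with 2 replicates of each, and SIRT7 is a sirtuin of the nucleus that removes acyl groups from lysines. The sources used here give no treatment, age or Sirt7 allele, and do not say which X chromosome was inactive in the cells. Reads were divided between the mus copy and the cas copy of chromosome X, and replicates were pooled by genotype before deposit, so that each copy has 1 matrix per genotype. No difference between KO and WT below has a replicate check or a test, and read depth is unknown.

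In female mammals most genes on 1 X chromosome of each cell are silenced, and the RNA of Xist coats that chromosome. The inactive X folds into a pair of large domains that meet at the macrosatellite Dxz4, and the separation of gene-rich A and gene-poor B compartments, which is strong on active chromosomes, is weak on it. Atrx encodes a chromatin remodeller that works with DAXX to deposit histone H3.3 in heterochromatin. Pgk1 encodes the glycolytic enzyme phosphoglycerate kinase and is a classical marker gene of X inactivation. Magt1 encodes a magnesium transporter and oligosaccharyltransferase subunit, Fgf16 a secreted fibroblast growth factor, and Lpar4 a G protein-coupled receptor for lysophosphatidic acid. Rtl3 derives from the gag gene of a retrotransposon.

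The start sites of the members differ in CpG content, and CpG sites are where promoters of silenced genes on the inactive X are known to be methylated. RefSeq promoters of build GRCm38.p6, taken from 250 bases before to 50 bases after the start, were found for 5 of the 6 members, and Fgf16 had none in the table. The promoters of Atrx, Pgk1 and Lpar4 are shown because they mark the proximal bin, the middle and the distal bin of the region and span most of its range of CpG content. Each is written 5′ to 3′ on the strand of its gene, with every CG in capitals.
Atrx promoter, chrX:105929323-105929622, minus strand: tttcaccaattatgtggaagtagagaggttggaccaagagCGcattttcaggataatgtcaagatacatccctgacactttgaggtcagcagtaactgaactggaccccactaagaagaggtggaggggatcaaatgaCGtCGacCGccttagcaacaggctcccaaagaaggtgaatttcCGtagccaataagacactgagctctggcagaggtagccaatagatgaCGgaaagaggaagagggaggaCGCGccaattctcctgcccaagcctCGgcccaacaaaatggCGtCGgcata
Pgk1 promoter, chrX:106186850-106187149, plus strand: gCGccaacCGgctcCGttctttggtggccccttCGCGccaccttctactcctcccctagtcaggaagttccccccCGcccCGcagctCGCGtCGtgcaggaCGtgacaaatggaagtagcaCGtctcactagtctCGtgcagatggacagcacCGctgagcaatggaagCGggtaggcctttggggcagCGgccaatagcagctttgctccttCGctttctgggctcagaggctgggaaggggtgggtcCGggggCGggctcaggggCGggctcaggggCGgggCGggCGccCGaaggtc
Lpar4 promoter, chrX:106920375-106920674, plus strand: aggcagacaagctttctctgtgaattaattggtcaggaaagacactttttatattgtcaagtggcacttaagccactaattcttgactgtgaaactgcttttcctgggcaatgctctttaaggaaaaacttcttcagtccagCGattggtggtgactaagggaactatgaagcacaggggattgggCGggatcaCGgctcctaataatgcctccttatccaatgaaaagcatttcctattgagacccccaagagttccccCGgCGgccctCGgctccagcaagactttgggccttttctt

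The motif CG, which reads the same on both strands, occurs 24 times in the Pgk1 promoter, and 9.48% of the 1223 chromosome X promoters hold at least as many. The Magt1 promoter has 26, a count that 7.52% reach. Atrx has 11, which 36.1% reach, Rtl3 has 7 and Lpar4 has 6, which 50.5% and 55.0% reach. The median on the chromosome is 7. Pgk1 and Magt1 are thus the CpG-rich members, and the genes of the most distal bin lie near the median. The matrices carry no methylation, so these counts describe the sequence only.

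The compartment score of a bin is how much more it correlates, on average, with A bins than with B bins, over partner bins at least 2 Mb away. Each deposited value says how well the contact profiles of 2 bins correlate, so the score has no unit and a higher value means a profile more like that of gene-rich bins. A and B are the top and bottom 20% of bins by the first principal component of cas, from the average of the KO and WT matrices. The 118 A bins hold 340 protein-coding genes against 55 in the 118 B bins. Since cas set these classes, the cas scores are not independent of them. Classes set from the mus matrices instead gave the mus score of the region the opposite direction, with a KO minus WT difference of -0.0164 in place of 0.0262. All statements below about A and B therefore hold for the compartments of cas.

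Correlations varied less on mus than on cas. The SD over all entries of the 250 kb matrix was 0.0597 in KO and 0.0682 in WT on mus, and 0.117 in KO and 0.131 in WT on cas. The mean correlation of adjacent 250 kb bins, which noise lowers, was 0.131 in KO and 0.149 in WT on mus, and 0.184 in KO and 0.196 in WT on cas. Both measures were lower in KO at this bin size, and their part in the differences below was not tested.

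On mus the region averaged a compartment score of 0.0171 in KO and -0.00912 in WT, a difference of 0.0262. All 5 bins had a higher score in KO. Of all 588 bins, 53.2% were higher in KO on mus, and of the 356 bins right of Dxz4, where the region lies 30.75 Mb from the Dxz4 bin, 77.5% were. The median difference of the region was 0.0126 and that of all bins right of Dxz4 was 0.0116. The mean of the region thus exceeded its own median because of 2 bins at opposite ends.

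The bin of Fgf16, Atrx and Magt1 (chrX:105750001-106000000, class A) had a mus score of 0.0302 in KO and -0.0146 in WT. Its difference of 0.0449 was at rank 3 of 588 bins, and its score was at rank 20 in KO and rank 418 in WT when bins are ordered from the highest. Both terms contributed, since its mean correlation with A bins was 0.0430 in KO and 0.0139 in WT and that with B bins was 0.0127 in KO and 0.0286 in WT. In WT this gene-holding A bin thus correlated more with B bins than with A bins on mus, and in KO the order was turned. The WT order was not particular to this bin. The median mus score of all bins right of Dxz4 was -0.0127 in WT and -0.00246 in KO.

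The bin of Rtl3 and Lpar4 (chrX:106750001-107000000, in neither class) had a mus score of 0.0272 in KO and -0.0262 in WT. Its difference of 0.0534 was the highest of all bins. Its mus profile over distant partners correlated at only 0.188 between KO and WT, at the 7.14 percentile of all bins. The part of this low correlation in the difference was not tested. Here the B term was the larger one, with a mean correlation with B bins of 0.00880 in KO and 0.0438 in WT, whereas that with A bins was 0.0360 in KO and 0.0176 in WT. The bins just outside the region had smaller differences, 0.0276 in the bin of Cypt2 and 0.0105 in that of P2ry10 and P2ry10b (chrX:107000001-107250000).

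The 3 bins between these ends changed about as much as the median bin of their side of Dxz4. The bin of Pgk1 (chrX:106000001-106250000, class A) had a mus score of 0.0135 in KO and 0.00320 in WT, a difference of 0.0103 at rank 196. It also holds Cox7b, a cytochrome c oxidase subunit gene, Atp7a, a copper transporter gene, Tlr13, a receptor gene of innate immunity, Taf9b, a transcription factor subunit gene, and Fnd3c2. The bin of Fndc3c1 had 0.00360 in KO and -0.00898 in WT, and that of Cysltr1, a leukotriene receptor gene, and Gm5127 had 0.0110 in KO and 0.00106 in WT. At 250 kb the bin that Pgk1 shares with these genes was therefore not among those with the largest differences.

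**Figure D1:**
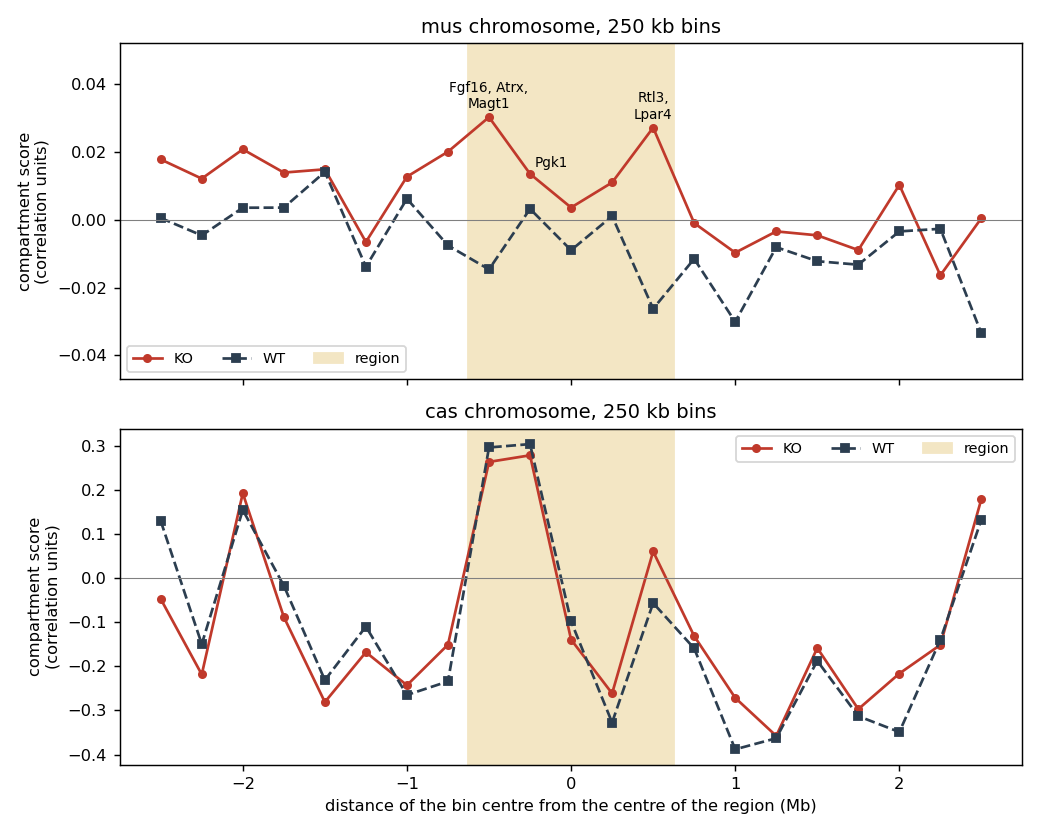
Compartment score (vertical axis, in correlation units) of each 250 kb bin of the region (shaded) and 2 Mb on each side, against distance from the centre of the region in Mb, in KO (circles, solid line) and WT (squares, dashed line), 1 combined matrix each. On mus the KO and WT lines part most at the bin of Fgf16, Atrx and Magt1 (0.0302 in KO, -0.0146 in WT) and at that of Rtl3 and Lpar4 (0.0272 in KO, -0.0262 in WT), and the vertical scales of the mus and cas panels differ.

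At 100 kb each member has a bin of its own or shares it with a gene that is no member, and the members did not all go the same way on mus. Rtl3 had a mus score of 0.00700 in KO and -0.00658 in WT, a difference of 0.0136 at rank 27 of 1461 bins. Magt1 had 0.00561 in KO and -0.00469 in WT, and Atrx had 0.00637 in KO and -0.00286 in WT. Pgk1, in a bin with Tlr13, had 0.00254 in KO and -0.00576 in WT, a difference of 0.00830 at rank 148, close to that of Atrx (0.00922 at rank 117). Lpar4 had 0.000170 in KO and -0.00604 in WT, a difference of 0.00621 at rank 247. Fgf16 was the exception, with -0.00168 in KO and 0.00264 in WT, a difference of -0.00432.

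The bin of Fgf16 at this size (chrX:105700001-105800000) begins proximal to the region and is in neither class, whereas the bins of Atrx, Magt1 and Pgk1 are class A. The value of Fgf16 at 250 kb is therefore that of a bin it shares with Atrx and Magt1. Of the 13 bins of 100 kb in the region 11 were higher in KO on mus, where 49.3% of all bins and 65.3% of those right of Dxz4 were. The mean difference of the region at 100 kb was 0.00466, smaller than at 250 kb. The number of bins with a positive mus score was 8 in KO and 1 in WT. Of the 39 flanking bins, 24 were positive in KO and 6 in WT. The median mus score of all bins right of Dxz4 was also higher in KO, -0.000829 against -0.00317 in WT, so the count is not particular to the region.

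**Figure D2:**
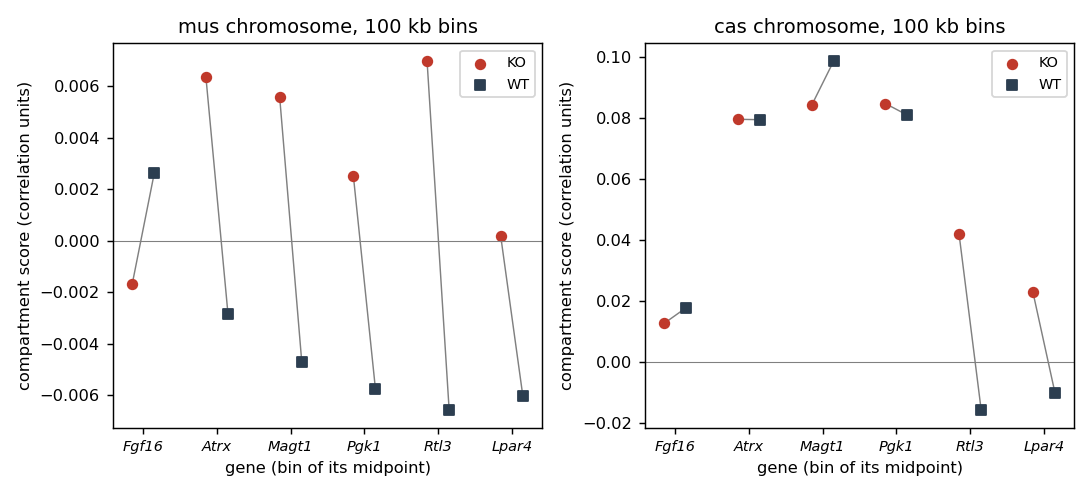
Compartment score (vertical axis, in correlation units) of the 100 kb bin of each member gene on mus (left) and cas (right) in KO (circles) and WT (squares), 1 combined matrix each, with a line joining the genotypes. On mus 5 of the 6 members were higher in KO and Fgf16 was lower, and on cas the wide gaps are those of Rtl3 and Lpar4.

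The distant regions behind the mus difference lay mainly on the same side of Dxz4. The mean correlation of the region with A bins was 0.0407 in KO and 0.0275 in WT, a difference of 0.0132, and with B bins 0.0236 in KO and 0.0366 in WT, a difference of -0.0130. The A and B terms gave nearly equal shares at 250 kb, whereas at 100 kb their differences were 0.00391 and -0.000754. With the 72 A bins right of Dxz4 the correlation was 0.0573 in KO and 0.0401 in WT, and with the 46 A bins left of it 0.0155 in KO and 0.00844 in WT. With the 80 B bins right of Dxz4 it was 0.0375 in KO and 0.0557 in WT, and with the 38 B bins left of it -0.00571 in KO and -0.00353 in WT.

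The average over all bins right of Dxz4 did not show this pattern of A gains. The mean difference with A bins right of Dxz4 was 0.0173 for the region, against 0.00154 for all those bins, and with A bins left of it 0.00704 for the region, against 0.0114. With B bins right of Dxz4 it was -0.0182 for the region and -0.00888 for all those bins. Over all partner bins, without regard to class, the region differed little, with 0.00189 for those left of Dxz4 and 0.00283 for those right of it. These last values turned sign when the mean of each distance was subtracted (left, -0.00520) or when the partners from 30 to 40 Mb (left, -0.000603) or from 130 to 140 Mb (right, -3.97e-05) were left out, so they give no direction.

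By 10 Mb block, 2 stretches of the chromosome gave most of the mus difference. The stretch from 130 to 170 Mb, with 43 A bins and 2 B bins, gave 41.9%, and the correlation of the region was higher in KO with all 4 of its blocks. It was 0.0422 in KO and 0.0178 in WT with the block from 130 to 140 Mb, and 0.0430 in KO and 0.0228 in WT with that from 140 to 150 Mb. With the block from 160 to 170 Mb it was 0.0175 in KO and 0.00513 in WT, and with that from 150 to 160 Mb 0.0139 in KO and 0.00588 in WT. The mean over all bins right of Dxz4 went the opposite way with these blocks, with differences of -0.00475 to -0.00816.

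The stretch from 80 to 100 Mb, just distal to Dxz4, gave 37.7% through lower correlations in KO. The block from 80 to 90 Mb, which holds 33 B bins and no A bin, had a correlation with the region of 0.0542 in KO and 0.0787 in WT, and by itself gave 27.4%. With the block from 90 to 100 Mb the correlation was 0.0689 in KO and 0.0796 in WT. The mean over all bins right of Dxz4 differed by -0.00552 from 80 to 90 Mb and by 0.00732 from 90 to 100 Mb. For the region these differences were -0.0245 and -0.0107. Left out, the block from 80 to 90 Mb lowered the difference of the score to 0.0213. The 7 blocks from 0 to 70 Mb together gave 18.5%, and the neighbouring stretch from 100 to 130 Mb gave -1.73%.

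Across Dxz4 the largest single difference was with the block from 30 to 40 Mb, where the correlation was 0.00967 in KO and -0.0236 in WT, but its 4 A and 2 B bins gave it only 5.58% of the change. With the block from 20 to 30 Mb it was 0.00401 in KO and -0.0193 in WT, and that from 60 to 70 Mb, with 21 B bins, had -0.00976 in KO and 0.00808 in WT. The mean over all bins right of Dxz4 went the same way with these blocks. Its differences were 0.0183 from 30 to 40 Mb, 0.00946 from 20 to 30 Mb and -0.00560 from 60 to 70 Mb. For the region they were 0.0333, 0.0233 and -0.0178. Contributions were positive in 13 of 17 blocks, a count that was not taken for other bins. At 100 kb the stretch from 130 to 170 Mb gave 64.2%, that from 80 to 100 Mb 34.2%, that from 0 to 70 Mb 12.3% and that from 100 to 130 Mb -17.4%, so the order of the stretches was the same.

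**Figure D3:**
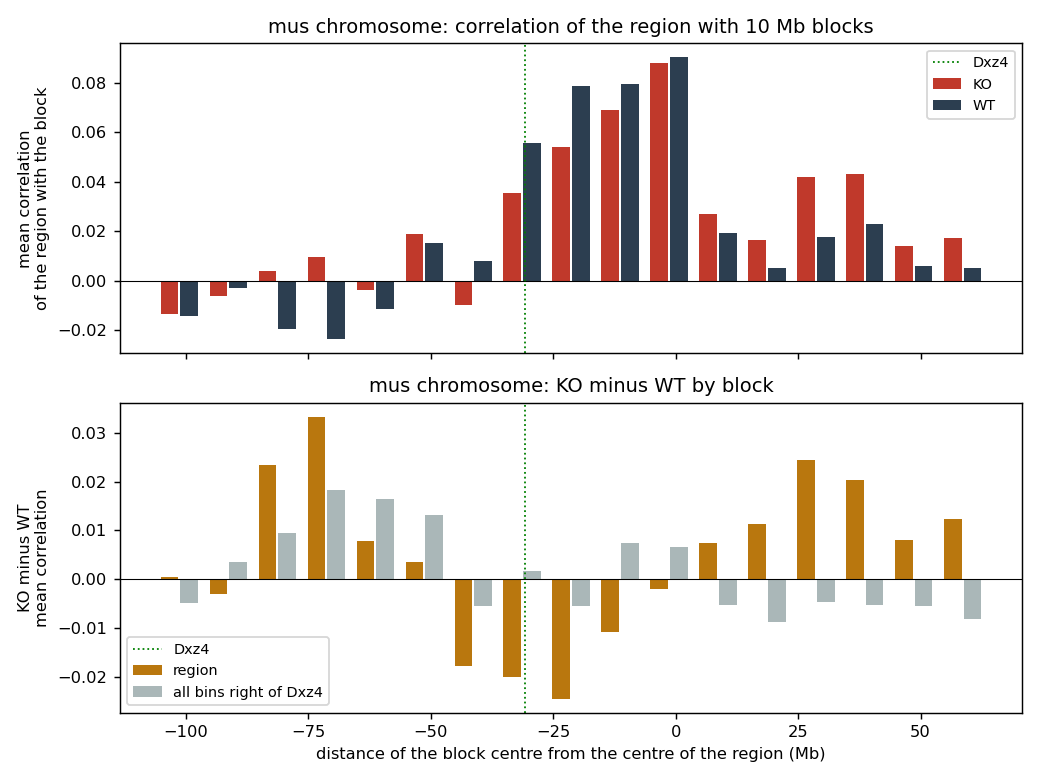
Upper panel, mean correlation of the region with each 10 Mb block on mus (bars, KO left and WT right), against distance of the block from the centre of the region in Mb, with Dxz4 as a dotted line. Lower panel, KO minus WT of the region beside the mean over all bins right of Dxz4: the region is lower in KO with the blocks just distal to Dxz4 (0.0542 in KO, 0.0787 in WT from 80 to 90 Mb) and higher with those toward the distal end, where that mean is lower.

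The 2 end bins shared some partner blocks and differed in others. The bin of Fgf16, Atrx and Magt1 was higher in KO with every block from 0 to 60 Mb, by 0.0208 to 0.0582, and with the blocks from 150 to 160 Mb (0.0310) and 160 to 170 Mb (0.0350). The mean over all bins right of Dxz4 was also higher in KO with each block from 10 to 60 Mb, by 0.00343 to 0.0183. With that from 0 to 10 Mb it was lower (-0.00492). The bin of Fgf16, Atrx and Magt1 was lower with the blocks from 90 to 100 Mb (-0.0319) and 80 to 90 Mb (-0.0181). The bin of Rtl3 and Lpar4 had its lowest differences with the blocks from 80 to 90 Mb (-0.0599) and 60 to 70 Mb (-0.0356), and was lower with that from 90 to 100 Mb (-0.0279) too. It was higher with the blocks from 30 to 40 Mb (0.0647), 130 to 140 Mb (0.0342) and 140 to 150 Mb (0.0265), and near 0 from 150 to 170 Mb (-0.00615 and 0.00610).

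The Pgk1 bin shared traits of both ends, although its score changed little. It was higher in KO with the block from 30 to 40 Mb (0.0583) and with the blocks from 110 to 150 Mb (0.0235 to 0.0419). Of these, the block from 110 to 120 Mb holds 16 B bins and no A bin, so that gains with it lower the score, and the block from 140 to 150 Mb holds 12 A bins and no B bin. The bins of Fndc3c1 and of Cysltr1 and Gm5127 stayed between -0.0309 and 0.0290 in every block. Over partner bins the KO minus WT rows of the Atrx bin and of the Rtl3 and Lpar4 bin correlated at 0.164, and those of the Pgk1 bin and the Rtl3 and Lpar4 bin at 0.305, over 569 and 570 partners. Such correlations share the same matrices and describe them only.

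**Figure D4:**
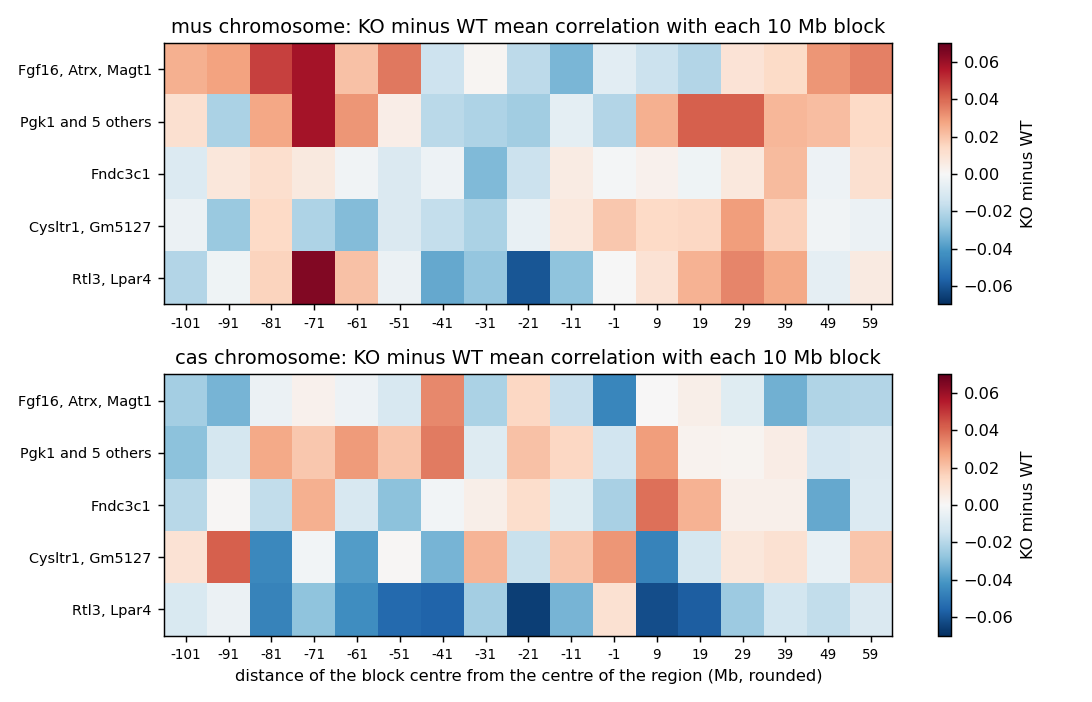
KO minus WT mean correlation (colour, in correlation units) of each 250 kb bin of the region (rows) with each 10 Mb block (columns, distance from the centre of the region in Mb) on mus (upper) and cas (lower). On mus the bin of Rtl3 and Lpar4 is lowest with the block from 80 to 90 Mb (-0.0599). The bin of Fgf16, Atrx and Magt1 is higher on mus with all 6 blocks farthest to the left. The mean over all bins right of Dxz4 is higher too, except with the leftmost of them. On cas the Rtl3 and Lpar4 row is lower with 16 of 17 blocks, and the region as a whole is higher with only 1 of 17. Such counts were not taken for other bins.

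Many partner bins entered the difference, with uneven shares. Of 234 A and B bins that entered it, 146 added to it. The region was chosen for a rise of this sum, and such a share was not taken for other bins. The 20 largest contributions summed to 0.0140, and all of them together to 0.0262. The bin of Il13ra1, an interleukin receptor gene, and Zcchc12 (chrX:36000001-36250000, class A) had the largest positive contribution of a gene-holding bin, with a correlation of 0.0383 in KO and -0.0584 in WT. The bin of Ripply1, Cldn2, Morc4 and Rbm41 (chrX:139750001-140000000, class A), of which Cldn2 encodes a tight junction claudin, had 0.0957 in KO and 0.00582 in WT. The bin of 4932429P05Rik and 4930415L06Rik (chrX:89750001-90000000, class B) contributed through a loss, with 0.00263 in KO and 0.0939 in WT.

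The partners that worked most against the difference were all class A and had lower correlations in KO. Hdac8, a histone deacetylase gene that acts on cohesin (chrX:102250001-102500000), had 0.0730 in KO and 0.139 in WT. The bin of the clotting factor gene F8 with Fundc2, Cmc4, Mtcp1 and Brcc3 (chrX:75250001-75500000), next to Dxz4, had 0.0292 in KO and 0.0919 in WT. The bin of Maob, a monoamine oxidase gene, and Ndp (chrX:16750001-17000000) had -0.0341 in KO and 0.0269 in WT.

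Loci known for the structure or silencing of the X differed in direction as partners of the region on mus. The bin of Xist, its antisense Tsix and the activator Jpx, 3 Mb from the centre of the region, had a correlation of 0.0911 in KO and 0.111 in WT. The bin of Ftx, a further noncoding activator of Xist, had 0.0737 in KO and 0.0964 in WT. The bin of Rlim, whose ubiquitin ligase promotes Xist expression, went the other way with 0.147 in KO and 0.0793 in WT. The Dxz4 host transcript 4933407K13Rik had 0.0507 in KO and 0.0975 in WT, and the noncoding RNA locus Firre had 0.0464 in KO and 0.0582 in WT.

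On cas the Rlim bin had the opposite difference, with 0.0323 in KO and 0.0994 in WT, and so did the Ftx bin, with 0.0564 in KO and 0.0290 in WT. Firre also had a lower correlation in KO on cas, 0.0259 in KO and 0.0986 in WT. The Xist bin (0.0604 in KO, 0.0696 in WT) and the Dxz4 host bin (0.0585 in KO, 0.0493 in WT) differed little on cas.

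Genes known to escape X inactivation also lay on both sides as partners on mus. Kdm5c, a histone demethylase gene, had a correlation with the region of 0.0537 in KO and -0.00189 in WT, and Kdm6a, a demethylase gene for another histone mark, had -0.0134 in KO and -0.0218 in WT. The RNA helicase gene Ddx3x had 0.0314 in KO and 0.00396 in WT, Shroom4, an actin-binding protein gene, -0.0165 in KO and -0.0438 in WT, and the translation initiation factor gene Eif2s3x 0.0985 in KO and 0.0924 in WT. Utp14a had 0.0201 in KO and 0.0290 in WT, and the carbonic anhydrase gene Car5b 0.0162 in KO and 0.0266 in WT. On cas 6 of these 7 loci had a higher correlation in KO, with differences of 0.0206 to 0.0515, and Shroom4 had 0.00880 in KO and 0.0454 in WT. The bins of Kdm5c, Eif2s3x, Ddx3x, Utp14a and Car5b are class A. With all A bins the mean cas correlation of the region was also higher in KO, 0.0357 against 0.0279 in WT. With bins of neither class, as those of Kdm6a and Shroom4, it was 0.0100 in KO and 0.0229 in WT. The share of all partner bins higher in KO was not taken. Pbdc1 lies 1.25 Mb from the centre of the region and has no partner value beyond 2 Mb.

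The bins whose own KO minus WT rows on mus were most like that of the region lay right of Dxz4, among 322 gene-holding bins over 5 Mb away. That of Pcyt1b, a phosphocholine synthesis gene (chrX:93500001-93750000), correlated at 0.358, that of Zfx, a transcription factor gene, and Eif2s3x (chrX:94000001-94250000) at 0.339, and that of Tbl1x and Cldn34-ps (chrX:77500001-77750000) at 0.337, over 554 partner bins. The median over the 322 bins was -0.0172. On cas the most like bins were those of Pls3 (0.335), Fmr1 (0.295) and Rps6ka3, Eif1ax and Map7d2 (0.272), against a median of 0.0439. The rows of a matrix share its reads, so these correlations have no test.

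On cas the region had no common direction. Its mean compartment score was 0.0403 in KO and 0.0236 in WT, a difference of 0.0167, but without the bin of Rtl3 and Lpar4 the difference was -0.00834. The number of bins higher in KO was 2 of 5, where 60.9% of all bins and 65.7% of those right of Dxz4 were higher. At 100 kb it was 6 of 13, where 58.6% and 60.5% were. The cas scores of the bins ranged from -0.261 to 0.278 in KO and from -0.328 to 0.304 in WT. The medians over all bins were -0.167 in KO and -0.186 in WT. The lowest bin, that of Cysltr1 and Gm5127, was at rank 368 in KO and 393 in WT of 588. The mus scores ranged from 0.00360 to 0.0302 in KO and from -0.0262 to 0.00320 in WT.

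The bins of Atrx and of Pgk1 were A-like on cas in both genotypes. The bin of Fgf16, Atrx and Magt1 had a cas score of 0.263 in KO and 0.296 in WT, a difference of -0.0328, and the Pgk1 bin had 0.278 in KO and 0.304 in WT, a difference of -0.0254. The bin of Fndc3c1 had -0.139 in KO and -0.0981 in WT, and that of Cysltr1 and Gm5127 had -0.261 in KO and -0.328 in WT. The profiles of the Atrx and Pgk1 bins over distant partners correlated between the genotypes at 0.886 and 0.882 on cas, and at 0.433 and 0.424 on mus. The medians over all bins were 0.848 on cas and 0.491 on mus, so this gap between the chromosomes was not particular to these bins.

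The bin of Rtl3 and Lpar4 changed the sign of its cas score, with 0.0604 in KO and -0.0565 in WT, a difference of 0.117 at rank 35 of 588. Its mean correlation with A bins was 0.0242 in KO and -0.0187 in WT, and with B bins -0.0362 in KO and 0.0378 in WT. The direction was the same as on mus and the same at 100 kb, where Rtl3 had 0.0418 in KO and -0.0157 in WT and Lpar4 had 0.0231 in KO and -0.00994 in WT. Its cas profile in KO did not resemble that in WT, with a correlation of -0.113, whereas the median over all bins was 0.848.

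The cas row of the Rtl3 and Lpar4 bin resembled its neighbours differently in the genotypes. Its correlation with the row of the Atrx bin was 0.548 in KO and -0.330 in WT, and with that of the Pgk1 bin 0.483 in KO and -0.351 in WT. With the row of the Fndc3c1 bin it was -0.307 in KO and 0.521 in WT, and with that of Cysltr1 and Gm5127 -0.435 in KO and 0.457 in WT. The SD of its cas row was low, 0.0477 in KO and 0.0474 in WT, at the 3.40 and 5.27 percentiles of all bins, and its part in these differences was not tested.

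The other 100 kb bins of the region on cas differed in both directions. Atrx had a cas score of 0.0795 in KO and 0.0794 in WT, Pgk1 0.0847 in KO and 0.0809 in WT, Magt1 0.0841 in KO and 0.0986 in WT, and Fgf16 0.0127 in KO and 0.0179 in WT. The most negative difference was that of the bin of Taf9b and Fnd3c2 (chrX:106200001-106300000), with -0.00777 in KO and 0.0335 in WT. This bin and that of Rtl3 flank the stretch of Fndc3c1, Cysltr1 and Gm5127, whose 250 kb bins had negative cas scores.

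The distant regions behind the cas difference were spread over the chromosome. The stretch from 0 to 70 Mb gave 29.9% of it, that from 80 to 100 Mb 26.0%, that from 100 to 130 Mb 27.2% and that from 130 to 170 Mb 9.04%. With 100 kb bins these shares were 47.6%, 14.3%, 13.5% and 16.0%, so their order depended on the bin size. The region as a whole was higher in KO with only 1 of 17 blocks on cas, and with 4 of 17 at 100 kb. All bins right of Dxz4 were on average lower in KO on cas too. Their differences were -0.00595 for partners left of Dxz4 and -0.00298 for those right of it, against -0.00814 and -0.00776 for the region. Counts of blocks were not taken for other bins. The bin of Rtl3 and Lpar4 was lower in KO with 16 of 17 blocks on cas and with 9 on mus. Its lowest cas differences were from 80 to 90 Mb (-0.0658), 110 to 120 Mb (-0.0623) and 120 to 130 Mb (-0.0576). As on mus, its lowest difference was with the block from 80 to 90 Mb.

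Among partner bins on cas, 2 neighbouring gene-dense A bins were among the 3 with the largest positive contributions. The bin of Sowahd, Rpl39, Upf3b, Nkap, Akap14, Ndufa1, Rnf113a1, Gm9, Rhox1 and Rhox2a (chrX:37000001-37250000) had a correlation with the region of 0.0339 in KO and -0.0274 in WT. Its neighbour with Slc25a43, Slc25a5, C330007P06Rik, Ube2a, Nkrf and Septin6 (chrX:36750001-37000000) had 0.0272 in KO and -0.0306 in WT. Among the most negative were the bins of Srpx and Rpgr (-0.00425 in KO, 0.0583 in WT) and of Ctag2, class B (0.0531 in KO, -0.00814 in WT).

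The 2 Mb on each side of the region differed on mus about as the median bin right of Dxz4 did. Of the 16 flanking bins 15 were higher in KO on mus, where 77.5% of the bins right of Dxz4 were, and their median difference was 0.0104, against 0.0116 for those bins. The largest was that of Brwd3, a bromodomain gene, and Gm14870 (chrX:108750001-109000000), with a mus score of 0.000482 in KO and -0.0335 in WT. The next was that of Cypt2, with 0.0201 in KO and -0.00759 in WT. The lowest were a bin without genes (chrX:108500001-108750000), with -0.0164 in KO and -0.00267 in WT, and that of Magee2, with 0.0149 in KO and 0.0141 in WT.

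On cas 3 of the 8 flanking bins toward Xist and 7 of the 8 distal ones were higher in KO, where 65.7% of the bins right of Dxz4 were. The bin of Zdhhc15, a palmitoyltransferase gene, had a difference among the 2 lowest of the flanks, with a cas score of -0.0881 in KO and -0.0171 in WT. The highest differences were those of a bin without genes (chrX:108250001-108500000), with -0.216 in KO and -0.349 in WT, and of the bin of Gpr174 and Itm2a, with -0.271 in KO and -0.388 in WT.

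Within the region, the 10 pairs of bins had a mean correlation of 0.0948 in KO and 0.0845 in WT on mus, and 0.0170 in KO and 0.0470 in WT on cas. On mus 5 pairs were higher in KO, and on cas 3, and such a share was not taken for pairs elsewhere. The mean correlation of a bin with those within 1 Mb had a median over all bins of 0.118 in KO and 0.143 in WT on mus. On cas it was 0.130 in KO and 0.138 in WT. For the bins of the region these medians were 0.0889 in KO and 0.0820 in WT on mus, and 0.00529 and 0.0625 on cas. On mus the Pgk1 bin and the Rtl3 and Lpar4 bin had 0.136 in KO and 0.0652 in WT, whereas the Atrx bin and the adjacent Pgk1 bin had 0.0359 in KO and 0.0881 in WT. On cas these pairs had -0.0549 in KO and 0.0583 in WT, and 0.193 in KO and 0.197 in WT. The pair of end bins, those of Atrx and of Rtl3 and Lpar4, had 0.0763 in KO and 0.0986 in WT on mus.

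A boundary score, the mean correlation within a window on each side of a 100 kb bin minus that across it, was used to ask where neighbouring contact profiles part. The score is not matched on distance, because the pairs across a bin are farther apart. With 500 kb windows the Fgf16 bin had a mus boundary score of 0.0149 in KO and -0.00199 in WT, and with 1000 kb windows 0.0113 in KO and -0.000468 in WT. With 1000 kb windows these lie at the 89.9 percentile of 1359 bins in KO and the 18.1 percentile in WT. With 2000 kb windows the scores were 0.00759 in KO and 0.00469 in WT. Some flanking bins differed more on mus, so the difference was not particular to the Fgf16 bin. With 1000 kb windows the bin starting at 108.9 Mb had -0.00745 in KO and 0.00734 in WT, at the 0.736 and 77.5 percentiles. The bin starting at 105.6 Mb, just outside the region, had 0.0129 in KO and 0.000594 in WT.

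On cas the Fgf16 bin had a high boundary score in both genotypes with 500 kb windows only, 0.0664 in KO and 0.0685 in WT. With 1000 kb windows it was at the 59.2 percentile of 1359 bins in KO and the 51.3 percentile in WT. The Fgf16 bin lies next to the step from the bin of Cypt2, with a cas score of -0.151 in KO and -0.234 in WT, to the A-like bin of Atrx. A second cas peak with 500 kb windows lay at the bin of Taf9b and Fnd3c2, with 0.0744 in KO and 0.0433 in WT, where the A-like genes around Pgk1 end. With 1000 kb windows that bin was at the 38.2 percentile in KO and the 7.95 percentile in WT. Both high cas scores therefore depended on the window. On mus the bin of Taf9b and Fnd3c2 had -0.00370 in KO and -0.0132 in WT with 500 kb windows.

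**Figure D5:**
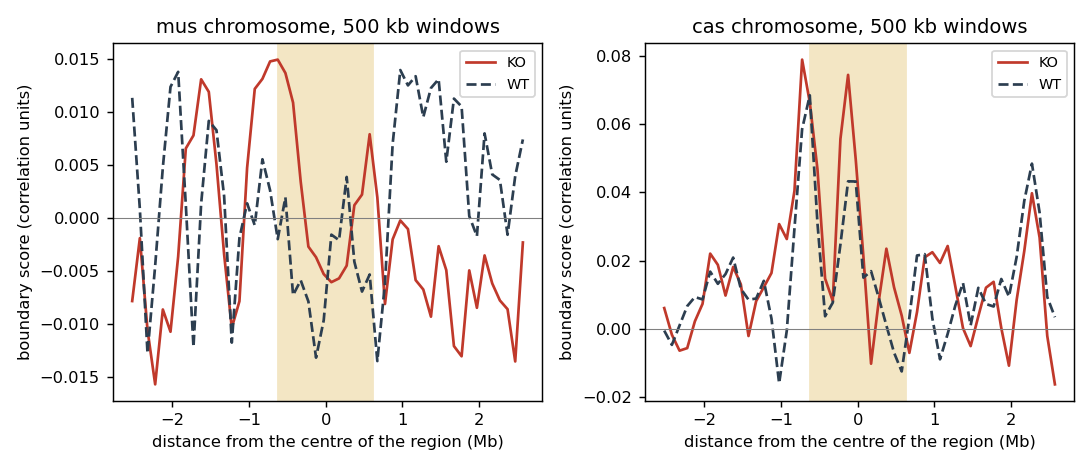
Boundary score with 500 kb windows (vertical axis, in correlation units) of 100 kb bins in the region (shaded) and 2 Mb on each side, against distance from the centre of the region in Mb, in KO (solid) and WT (dashed), 1 combined matrix each. On mus the KO line peaks at the proximal edge, in the Fgf16 bin (0.0149 in KO, -0.00199 in WT). The lines part more at some flanking bins, as at that starting at 108.1 Mb (-0.0130 in KO, 0.0105 in WT). On cas both lines are high at the proximal edge (0.0664 in KO, 0.0685 in WT), and the vertical scales differ between the panels.

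The mean profile of the region over 569 distant bins correlated at 0.596 between KO and WT on mus and at 0.561 on cas, and at 0.507 and 0.294 with 100 kb bins. Between the chromosomes it correlated at 0.299 in KO and 0.271 in WT. With 100 kb bins these were 0.169 in KO and 0.0881 in WT. The profile of mus in KO was therefore closer to that of mus in WT than to that of cas in KO.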

How the data were processed

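Hi-C of 4 samples, 2 Sirt7-/- (KO) and 2 wild-type (WT), was grouped by the labels' genotypes. Fixation was in 2% formaldehyde and HindIII cut the chromatin, per the labels' protocols. The 8 deposited matrices hold scores, the correlations of contact profiles between bins of chromosome X, at 250 and 100 kb for KO and WT and for mus and cas. Replicates were pooled by genotype and reads were separated by allele before the authors made these scores, per the file headers. Tools and build named in the submitters' processing notes are HOMER, Juicer, Bowtie2, cutadapt and mm10. The sources used here do not give the contact normalization, the rule for allele assignment or the depth. The design text speaks of Xist binding, but sample labels and headers describe Hi-C.

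Bins without data in any matrix of a bin size were left out (588 of 683 and 1461 of 1707 were kept). Genes were placed by RefSeq midpoints (GRCm38.p6, the mm10 build). Python 3.11.15, numpy 2.4.6 and pandas 2.3.3 gave all values. Simulated matrices were used to check the scores of the region and its A and B terms on mus at 250 kb, and no other values. A block contributes the sum over its A bins divided by the number of A bins minus the same for B bins, and the contributions add up to the score difference. The matrices cover chromosome X, and expression and Sirt7 itself were not analysed here, so neither cell type nor knockout was checked.

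The members and lists were chosen with earlier results of these data known. Named are the members, the protein-coding genes of the flanking bins with the 2 highest and 2 lowest differences per allele, fixed structural and escape loci, and the genes of the 3 partner bins per direction with the largest contributions and of the 3 most alike bins. Some results that this rule selects are not reported here. The other genes of the region and the bins of Cypt2, P2ry10, P2ry10b, Taf9b and Fnd3c2 were chosen after their values were seen. As alternatives, the following were tried: the bin size, distance and class cutoffs, scaling, omitted partners and, added after the data were seen, omission of the 2 end bins.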

Additional observations from a re-analysis of the deposited data

Results flagged for a closer look

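The following values were higher in KO on mus and lower in KO on cas, or the reverse. The difference between the chromosomes was not tested for any of them, since each has a single pooled matrix per genotype, and the mus values are those by which the region was chosen. The mus change minus the cas change of the compartment score was 0.0777 in the bin of Fgf16, Atrx and Magt1, 0.0538 in that of Fndc3c1 and 0.0357 in that of Pgk1. In these 3 bins the cas score was lower in KO, by differences of -0.0328, -0.0412 and -0.0254. For the mean correlation of the whole region with all distant bins, mus minus cas was 0.0100 for partners left of Dxz4 and 0.0106 for partners right of it, but the mus values behind both turned sign under some alternatives and give no direction. For the pairs within the region it was 0.0403, where mus had 0.0103 and cas had -0.0300. The bins of Cysltr1 and Gm5127 and of Rtl3 and Lpar4 were higher in KO on both chromosomes.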

How the results depend on the processing

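No paired analysis was possible because the deposited matrices combine the replicates. Of 74 alternative values for 8 results, 47 kept their direction and size within 1.5 times, 19 moved and 8 turned sign, and the causes were not tested. With 100 kb bins the difference was 0.00466 for the mus score, 0.00337 for the cas score, 0.00391 and -0.000754 for the A and B terms on mus, and 0.000979 within the region. Classes from mus gave -0.0164 for the mus score, 0.00710 for the cas score, and -0.0192 and -0.00277 for the A and B terms. Classes of 30% gave -0.00730 for the B term. Without partners from 80 to 90 Mb the B term was -0.00810. Without those from 30 to 40 Mb the left value was -0.000603, and without those from 130 to 140 Mb the right value was -3.97e-05. With KO rescaled to the SD of WT, the right value was 0.00851 and the value within the region 0.0238. With the mean of each distance subtracted, the left value was -0.00520, the right 0.000814 and that within the region 0.0292. Without the bin of Rtl3 and Lpar4 the cas score difference was -0.00834, the B term -0.00751 and the right value 0.00433. Without that bin and the Atrx bin, the mus score difference was 0.0109, the cas one -0.000200, the A and B terms 0.00620 and -0.00474, and the left and right values -0.00476 and 0.00610. Omission of the weakest partner bins left the scores as they were, since none is class A or B.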
